A study of Mus musculus with 6 samples.

Results

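The genes on mouse chromosome 2 within 10 Mb of Rag1 were examined as a group in RNA sequencing of whole brainstems of WT and Rag1-/- mice aged 1 month. Members were the genes of the deposited table whose midpoint lay at most 10 Mb from that of Rag1 (mm10) and whose mean over the 6 libraries was at least 0.1 CPM (gene counts scaled to the total of the library). Of 101 genes of the table in this interval, 11 were under that level, and 4 were left out by name (Rag1 itself, Cd59a, Cd59b and Slc1a2), so that 86 of the 16762 genes tested were members. The WT mice were C57BL/6J and carried no targeted allele, and the Rag1-/- mice were the strain B6.129S7-Rag1tm1Mom/J, which is homozygous for a disrupted Rag1 in every cell of the body. There were 3 mice of each genotype, each sequenced as 1 library, and no treatment is named for either genotype.

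Rag1 encodes the DNA-cutting subunit of the recombinase that joins the segments of antigen receptor genes, and it is used by developing T and B cells. A strain name of the form B6.129 says that the mutation was made in embryonic stem cells of a 129 strain and then crossed into C57BL/6. Such crossing is known to leave a stretch of donor-strain DNA on each side of the targeted gene, in which neighbouring genes can differ in sequence from the C57BL/6 copy. The extent of that stretch is not given in the sources used here, and in this design the disrupted Rag1 and any donor DNA linked to it were carried by the same libraries and cannot be told apart.

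The 86 members were 78 protein-coding genes, 4 processed transcripts, 2 long intergenic RNAs, 1 antisense transcript and 1 processed pseudogene. On the proximal side of Rag1, towards the centromere, there were 35 members, and on the distal side there were 51. The proximal side held few genes near Rag1, with Lrrc4c and B230118H07Rik as the only members nearer than Api5 at -7.22 Mb, where a negative distance marks the proximal side and distance runs from midpoint to midpoint. The mean level was at least 1 CPM for 73 members. At the edges of the interval, Zfp408 at -9.997 Mb and Ano3 at 9.16 Mb were inside, and Ckap5 at -10.1 Mb and Lpcat4 at 10.6 Mb were outside.

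The libraries were checked before the members were compared. Their estimated depth ran from 31600000 to 46400000 reads, at which a level of 3 reads equals 0.0646 to 0.0951 CPM. Rag1 transcripts averaged 0.246 CPM in WT (SD 0.137) and 3.18 CPM (SD 0.750) in the other group (log2 fold change 3.30, adjusted p = 0.0120). Rag1 RNA was thus higher in the libraries labelled Rag1-/-. The label gives a genotype and not an RNA level, and the mutant libraries are named by their label. Xist, the RNA of the inactive X chromosome, reached 172 and 177 CPM in WT replicates 1 and 2 but only 2.93 CPM in WT replicate 3 and 0.462 to 0.738 CPM in the 3 libraries labelled Rag1-/-. Conversely, the Y-linked gene Ddx3y stood at 0.283 and 0.215 CPM in WT replicates 1 and 2 against 45.2 to 56.2 CPM in the other 4. Genotype was therefore partly aligned with sex-linked transcripts. Hindbrain markers (8 of 8 in the table) summed to 38.1 to 99.5 CPM in WT and 34.4 to 134 CPM in those labelled Rag1-/-, and forebrain markers (5 of 5) to 3.92 to 5.002 CPM and 3.50 to 5.36 CPM. Within the hindbrain list, the 5 Hox genes were at 0.0951 to 0.856 CPM in Rag1-/- replicate 2 and at 1.11 to 14.3 CPM in the other 5 libraries. The summed oligodendrocyte markers were higher in all 3 libraries labelled Rag1-/- (21270 to 22750 CPM) than in WT (16320 to 19300 CPM), as was each of the 4 genes. The summed B cell markers were lower, at 0.444 to 0.627 CPM against 0.661 to 0.978 CPM, and of the 5 T cell markers only Cd3e and Cd4 were in the table, with sums of 0.260 to 0.513 CPM against 0.173 to 0.805 CPM. Neuron, astrocyte, microglia, cerebellum, choroid plexus and meningeal fibroblast sums overlapped between the groups. In the cerebellum list (5 of 5), WT replicate 3 summed to 310 CPM against 72.3 to 139 CPM in the other 5 libraries. Pituitary markers (3 of 4 in the table) summed to 2.76, 55.5 and 646 CPM in WT replicates 1, 2 and 3, WT replicate 3 being the highest by far, and to 2.02 to 4.88 CPM in those labelled Rag1-/-. The part of these differences between libraries in the values of the members was not tested. In whole tissue, fewer cells of a type and less RNA per cell cannot be told apart.

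Genotype differences near Rag1 were asked first over all members and then by distance. Differences were tested as log2(CPM + 0.1) with limma-trend over all 16762 genes, and a log2 fold change here is on that scale, Rag1-/- minus WT, with its standard error (SE), and it understates the change of low genes. No member had an adjusted p under 0.05, where 8 of all genes tested (0.0477%) did, and 2 of these 8 were Rag1 and Cd59a, which lie in the interval but were left out. At an unadjusted p of at most 0.05 there were 13 members (15.1%), 6 higher and 7 lower in the libraries labelled Rag1-/-, against 11.6% of all genes tested, 2.27% higher and 9.29% lower. At an unadjusted p of at most 0.01 there were 6 members (6.98%), against 2.91% of all genes. All 3 values of one group lay outside the range of the other for 19 members (22.1%), 6 higher and 13 lower, against 18.4% of all genes. The median log2 fold change of the members was -0.05 and that of all genes tested was also -0.05.

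By distance, the differences at p of at most 0.05 lay mostly on the distal side within 5 Mb. Of the 37 distal members within 5 Mb, 10 (27.0%) were at p of at most 0.05, 5 higher and 5 lower, and 6 (16.2%) were at p of at most 0.01. The groups did not overlap for 13 of the 37 (35.1%). Of the 15 members from 0 to 2 Mb distal, 3 (20%) were at p of at most 0.05, and of the 22 from 2 to 5 Mb distal, 7 (31.8%) were. The first of the 10 was Commd9 at 0.25 Mb and the last was Rcn1 at 3.75 Mb. From 5 to 10 Mb distal, 0 of 14 members were at p of at most 0.05 and 0 had groups that did not overlap. This 0 did not hold with each library left out, since 3 of the 14 were at p of at most 0.05 without Rag1-/- replicate 2 (beside 10.3% of all genes), 1 without WT replicate 1 (beside 8.74%) and 1 without WT replicate 2 (beside 12.1%). Groups that did not overlap numbered 3 without WT replicate 1, Rag1-/- replicate 2 or Rag1-/- replicate 3, and 2 without WT replicate 2 or WT replicate 3, where 27.1% to 31.0% of all genes were without overlap, and they numbered 2 after quantile normalization, beside 15.5% of all genes. With all libraries, Lgr4, Fibin and Bdnf, chosen after their values were seen, had the smallest p values there, with log2 fold changes of -0.14, -0.27 and -0.20. Lgr4 encodes an R-spondin receptor and Bdnf the neurotrophin BDNF.

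The proximal side was near the background. From 5 to 10 Mb proximal, 3 of 33 members (9.09%) were at p of at most 0.05, 1 higher and 2 lower, and the 2 members nearer to Rag1 were not. The 3 were also the whole count for the 47 members 5 to 10 Mb away on either side. Without WT replicate 2 that count was 6 of 47, of which 5 were proximal, beside 12.1% of all genes, and without Rag1-/- replicate 2 it was 7 of 47, of which 4 were proximal, beside 10.3% of all genes. Without WT replicate 1 the proximal count was 1, beside 8.74% of all genes. Farther out, 9 of 51 genes (17.6%) from 10 to 20 Mb proximal and 15 of 112 (13.4%) from 10 to 20 Mb distal were at p of at most 0.05, as were 146 of 1262 genes (11.6%) of chromosome 2 more than 10 Mb away and 1693 of 14828 genes (11.4%) of the other autosomes. Without WT replicate 3, which stood apart in pituitary and cerebellum markers, 9 of the 37 distal members within 5 Mb were at p of at most 0.05, and without Rag1-/- replicate 2, which stood apart in Hox genes, 10 were, beside 11.6% and 10.3% of all genes. Distance bins were not tested against each other.

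**Figure D1:**
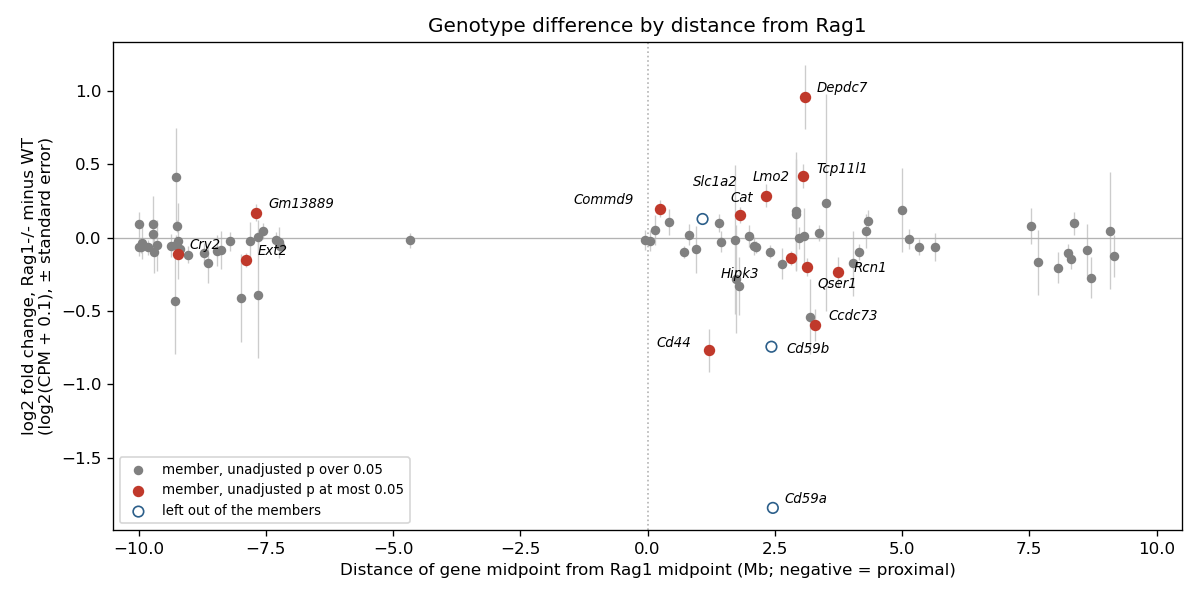
Log2 fold change of each member (Rag1-/- minus WT, log2(CPM + 0.1)) against the distance of its midpoint from that of Rag1 in Mb, with bars of 1 standard error. Red points have an unadjusted p of at most 0.05, and open circles are the neighbours left out. The red points on the distal side lie between 0.25 and 3.75 Mb, with log2 fold changes from -0.77 (Cd44) to 0.96 (Depdc7), while the points beyond 5 Mb distal are all grey.

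**Figure D2:**
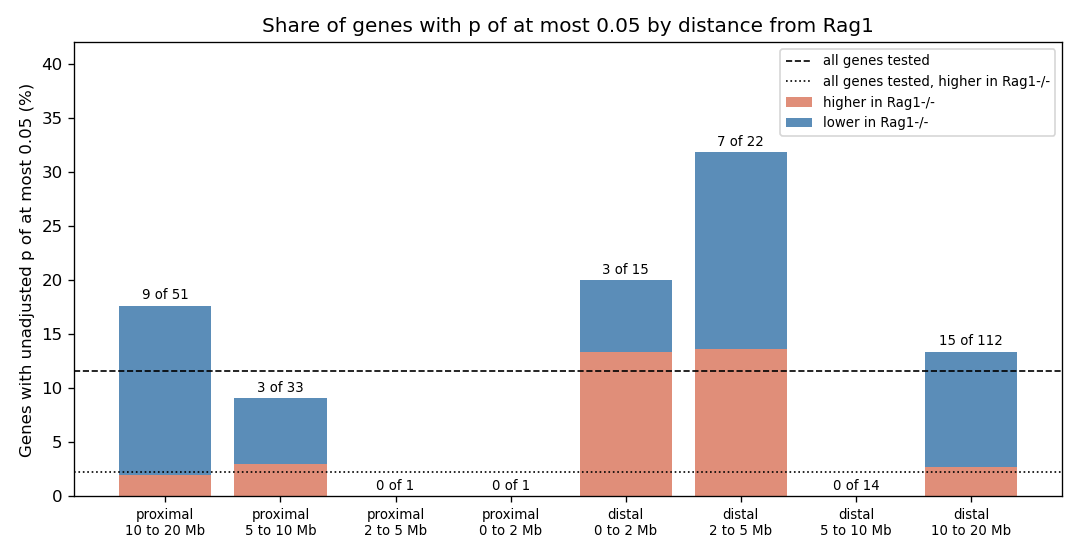
Share of genes, in percent, at an unadjusted limma p of at most 0.05 in each distance bin, split into genes higher (red) and lower (blue) in the libraries labelled Rag1-/-. Lines mark the share of all genes tested (11.6%, dashed) and of all genes tested and higher (2.27%, dotted). The highest bar is that from 2 to 5 Mb distal, at 7 of 22, and the bin from 5 to 10 Mb distal is at 0 of 14 with all 6 libraries and at 3 of 14 without Rag1-/- replicate 2, which is not drawn.

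The size of the difference did not grow or shrink steadily with distance. Spearman's rank correlation between the absolute log2 fold change and the absolute distance was -0.05 over the 86 members and 0.09 over the 51 distal members, and it was -0.26 between the absolute log2 fold change and the mean CPM, as descriptions over genes that share the same 6 libraries. The median absolute log2 fold change was 0.17 from 2 to 5 Mb distal, 0.10 from 0 to 2 Mb distal, 0.10 from 5 to 10 Mb distal, 0.07 from 5 to 10 Mb proximal and 0.09 over all genes. Of the 31 distal members within 5 Mb averaging 1 CPM or more, 10 (32.3%) were at p of at most 0.05, against 12.5% of all genes at that level. Directions were mixed in the distal 5 Mb, with 17 members higher and 20 lower, whereas 11340 of the 16762 genes tested were lower. The balance of directions over all genes moved with scaling. After median-of-ratios rescaling, 4.81% of all genes were higher and 4.31% lower at p of at most 0.05, with 6 and 3 of the 37 distal members, and after quantile normalization 5.10% were higher and 3.82% lower, with 5 and 3 of the 37.

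The smallest p values among the members belonged to Ccdc73, Cd44, Tcp11l1 and Depdc7. Of these, Tcp11l1, Depdc7 and Ccdc73 stand close together, with 9.6 kb between Tcp11l1 and Depdc7, 11991 bases between Depdc7 and Qser1 and 69.6 kb between Qser1 and Ccdc73. Another member lies in the first of these gaps and Prrg4 in the third. The 250 bases upstream of the annotated start of each of the 4 genes are shown because these genes differ most clearly between the groups and neighbours among them differ in direction. They are reference sequence of C57BL/6J from RefSeq (GRCm38.p6, the same build as mm10), 5′ to 3′ on the strand of the gene, with CCAAT and GGGCGG boxes, or their reverse complements ATTGG and CCGCCC, in capitals. They come from chr2:102901666-102901915 (minus strand) for Cd44, chr2:104712163-104712412 (minus strand) for Tcp11l1, chr2:104742858-104743107 (minus strand) for Depdc7 and chr2:104886074-104886323 (plus strand) for Ccdc73.
Cd44: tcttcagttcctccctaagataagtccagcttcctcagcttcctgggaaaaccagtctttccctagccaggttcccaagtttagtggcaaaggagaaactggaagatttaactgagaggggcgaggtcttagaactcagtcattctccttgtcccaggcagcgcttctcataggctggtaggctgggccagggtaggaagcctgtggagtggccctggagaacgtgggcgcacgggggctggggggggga
Tcp11l1: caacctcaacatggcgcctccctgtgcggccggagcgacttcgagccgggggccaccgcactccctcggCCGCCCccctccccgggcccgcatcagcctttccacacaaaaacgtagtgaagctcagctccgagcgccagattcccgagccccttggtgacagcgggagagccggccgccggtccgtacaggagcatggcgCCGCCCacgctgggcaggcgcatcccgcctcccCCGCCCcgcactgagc
Depdc7: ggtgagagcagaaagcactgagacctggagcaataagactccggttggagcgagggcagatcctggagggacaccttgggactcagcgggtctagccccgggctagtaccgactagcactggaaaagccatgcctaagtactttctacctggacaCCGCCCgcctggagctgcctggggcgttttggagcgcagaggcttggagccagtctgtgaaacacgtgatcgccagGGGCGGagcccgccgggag
Ccdc73: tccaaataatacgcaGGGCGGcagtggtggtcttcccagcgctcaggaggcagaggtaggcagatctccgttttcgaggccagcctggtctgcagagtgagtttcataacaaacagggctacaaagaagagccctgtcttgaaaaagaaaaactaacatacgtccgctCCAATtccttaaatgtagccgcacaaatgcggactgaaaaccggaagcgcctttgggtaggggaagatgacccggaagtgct

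These 4 windows differed in base composition. The window of Tcp11l1 had a GC content of 72.0% with 27 CpG dinucleotides and 3 GGGCGG boxes, that of Depdc7 62.0% with 14 CpG and 2 GGGCGG boxes, that of Cd44 56.4% with 5 CpG and none of the motifs, and that of Ccdc73 51.6% with 12 CpG, 1 CCAAT box and 1 GGGCGG box. TATAAA, searched like the others on both strands, was in none of the 4. Over 32851 RefSeq promoter windows of the same length, 12.4% held TATAAA, 33.8% CCAAT and 32.7% GGGCGG, with a median GC content of 52.4% and a median of 6 CpG. No 2 matches overlapped. The RefSeq start of Depdc7 lies slightly outside the deposited gene. A match is a run of letters and not a shown binding site, and the donor-strain sequence was not analysed here. A promoter entry was found for 66 of the 86 members.

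Cd44, a cell surface receptor for hyaluronan on leukocytes, reactive astrocytes and other cells, was lower in the libraries labelled Rag1-/- (chromosome 2, 102811142 to 102901665, minus strand, 1.21 Mb distal). It was at 4.44, 4.95 and 6.38 CPM in WT replicates 1 to 3 and at 3.21, 2.82 and 3.02 CPM in Rag1-/- replicates 1 to 3. Every WT library was above every library labelled Rag1-/-, and WT replicate 3 was the highest. The means were 5.26 ± 1.01 CPM (SD, n = 3) and 3.01 ± 0.193 CPM (SD, n = 3), and the fit on log2(CPM + 0.1) gave a log2 fold change of -0.77 (SE 0.14) and an adjusted p of 0.216. Summed markers of bone marrow and bone, tissues that also express Cd44, were at 3.90, 5.62 and 7.57 CPM in WT replicates 1 to 3 and at 0.935 to 2.54 CPM in those labelled Rag1-/-, with Mpo, Elane and Bglap lower in each and Elane at or under 3 reads in all of these. The part of such cells in the Cd44 difference was not tested. Summed microglia markers overlapped, at 136 to 164 CPM in WT and 143 to 154 CPM in those labelled Rag1-/-.

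Depdc7, which encodes a protein with a DEP domain, had the largest log2 fold change of the members (chromosome 2, 104721787 to 104742801, minus strand, 3.09 Mb distal). Depdc7 was at 0.991, 1.03 and 0.604 CPM in WT mice and at 1.94, 1.52 and 1.85 CPM in those labelled Rag1-/-. All libraries labelled Rag1-/- were above all WT libraries, and WT replicate 3 was the lowest of the 6. These values rest on about 21 to 67 reads per library. The mean was 0.876 ± 0.237 CPM in WT and 1.77 ± 0.219 CPM in those labelled Rag1-/- (SD, n = 3 each), with a fitted log2 fold change of 0.96 (SE 0.22) and an adjusted p of 0.285. With a term for libraries with Xist above 100 CPM, which leaves WT replicate 3 alone against the 3 libraries labelled Rag1-/-, Depdc7 and Cd44 had adjusted p values of 0.0477 and 0.0329, and over all alternatives these ranged from 0.0477 to 0.726 for Depdc7 and from 0.0329 to 0.639 for Cd44. Without WT replicate 3 the log2 fold changes were 0.74 for Depdc7 and -0.62 for Cd44.

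Tcp11l1, named for its likeness to the testis gene Tcp11, lies near Depdc7 on the same strand (104679980 to 104712162, minus strand, 3.05 Mb distal) and was also higher. It was at 21.99, 25.4 and 23.2 CPM in WT mice and at 31.6, 28.7 and 34.4 CPM in those labelled Rag1-/-. The lowest library labelled Rag1-/- was above the highest WT library. The mean was 31.6 ± 2.88 CPM against 23.5 ± 1.75 CPM in WT (SD, n = 3 each), with a fitted log2 fold change of 0.42 (SE 0.08, adjusted p = 0.221).

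Ccdc73, which encodes a coiled-coil protein, was lower (104886324 to 104999737, plus strand, 3.30 Mb distal). It was at 5.36, 4.77 and 4.46 CPM in WT mice and at 3.07, 3.14 and 3.31 CPM in those labelled Rag1-/-. The groups did not overlap, and the 3 values of the libraries labelled Rag1-/- lay close together. The means were 4.87 ± 0.458 CPM and 3.18 ± 0.124 CPM (SD, n = 3 each), with a fitted log2 fold change of -0.60 (SE 0.11, adjusted p = 0.212). By unadjusted p, Ccdc73, Cd44, Tcp11l1 and Depdc7 were at ranks 37, 43, 47 and 111 of the 16762 genes. Ccdc73 and Eif3m, a translation initiation factor subunit on the opposite strand, share 81 bases, and whether counting used strand is not given in the sources used here. Eif3m had a log2 fold change of 0.03 (SE 0.05).

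**Figure D3:**
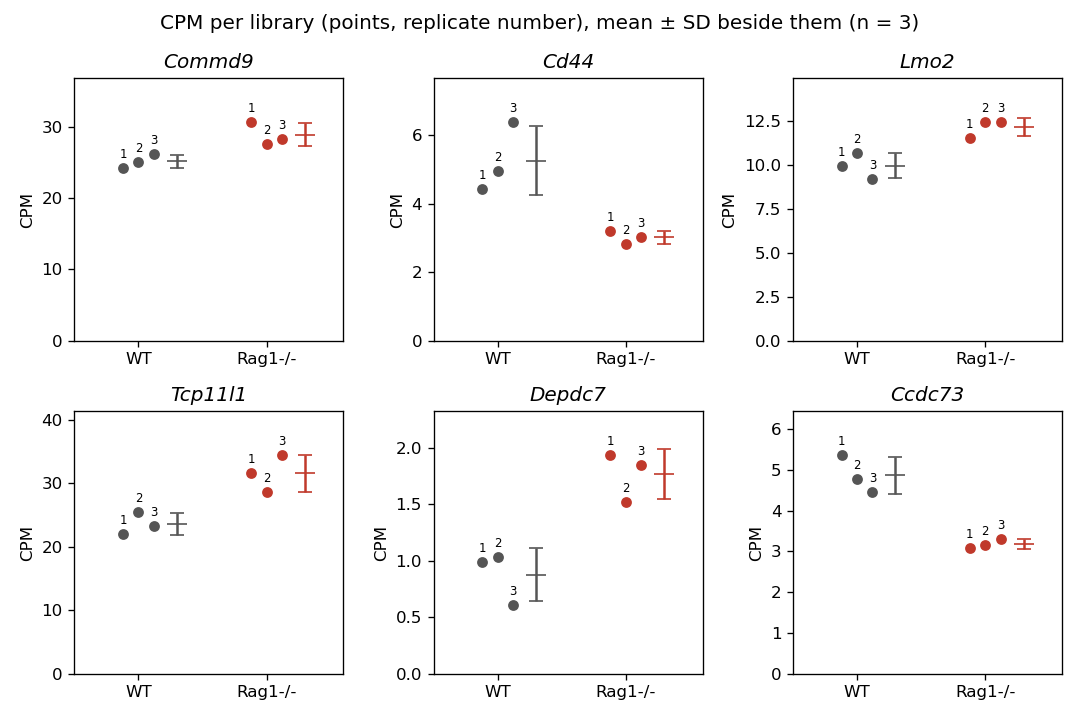
CPM of the 6 members at an unadjusted limma p of at most 0.01, in each library (points, numbered by replicate), with the mean and SD of each group beside them (n = 3). In each of the 6 panels the libraries labelled Rag1-/- lie wholly above (Commd9, Lmo2, Tcp11l1, Depdc7) or wholly below (Cd44, Ccdc73) the WT libraries.

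The other 2 members at p of at most 0.01 differed less. Lmo2, a LIM-domain cofactor of transcription in blood and endothelial development, lies 2.33 Mb distal (103957995 to 103981878, plus strand). It was at 9.96, 10.7 and 9.23 CPM in WT mice and at 11.6, 12.4 and 12.4 CPM in those labelled Rag1-/- (log2 fold change 0.29, SE 0.08, adjusted p = 0.334). The groups did not overlap, while the summed endothelial markers, a list added after values were seen, overlapped at 336 to 369 CPM in WT and 308 to 340 CPM in those labelled Rag1-/-. Of the 5 endothelial genes, Pecam1 and Cdh5 were lower in those labelled Rag1-/- without overlap, the other 3 overlapped, and Slc2a1 made up most of the sum. The part of endothelial cells in the Lmo2 values was not tested. Commd9, a COMMD-family protein of endosomal sorting and ubiquitin pathways, lies 0.25 Mb distal (101886262 to 101901639, plus strand) and is the nearest member to Rag1 at p of at most 0.05. It was at 24.3, 25.1 and 26.2 CPM in WT mice and at 30.7, 27.6 and 28.4 CPM in those labelled Rag1-/-, again without overlap, with a log2 fold change of 0.20 (SE 0.06, adjusted p = 0.340).

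With 3 libraries against 3, an exact two-sided permutation test cannot go below p = 0.1. Each of these 6 members reached that value, as does any gene whose groups do not overlap, which held for 18.4% of all genes. The 10 distal members within 5 Mb at p of at most 0.05 were picked by p on the same libraries, so an unchanged direction under other settings is no sign of stability. The count at p of at most 0.05 among the 37 distal members within 5 Mb need not hold the same 10 genes. It fell to 7 with a replicate block (beside 8.10% of all genes) and without WT replicate 1 (beside 8.74%). It was 8 with quantile normalization (8.92%), with limma without the trend (9.79%), without Rag1-/- replicate 1 (6.65%) and without Rag1-/- replicate 3 (9.81%).

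**Figure D4:**
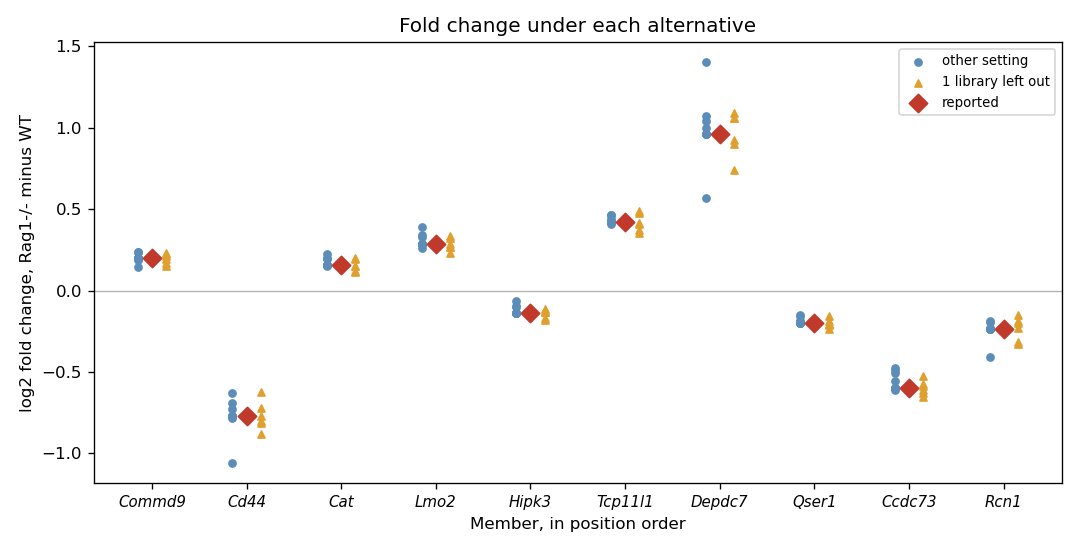
Log2 fold change (Rag1-/- minus WT) of the 10 distal members at an unadjusted limma p of at most 0.05, as reported (diamonds), under other settings of the fit (circles) and with 1 library left out (triangles). The members were picked by p on these libraries, so that no symbol crosses 0 is no sign of stability. The widest range is that of Depdc7, from 0.57 to 1.40.

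The interval from Tcp11l1 to Ccdc73, chosen after its values were seen, held 6 consecutive members in 0.320 Mb, of which 4 were at p of at most 0.05 and the same count had groups that did not overlap, beside 11.6% and 18.4% of all genes. Tcp11l1 and Depdc7 were higher, and Qser1 and Ccdc73 were lower. Qser1, a protein known to protect CpG-rich regulatory DNA from methylation, was at 16.1, 17.9 and 16.8 CPM in WT mice and at 14.4, 14.8 and 14.9 CPM in those labelled Rag1-/- (log2 fold change -0.20, SE 0.06, adjusted p = 0.354). Prrg4, a membrane protein gene between Qser1 and Ccdc73, had a log2 fold change of -0.54 (SE 0.25, adjusted p = 0.458), at 1.27 ± 0.144 CPM in WT and 0.872 ± 0.310 CPM in those labelled Rag1-/- (SD, n = 3 each), with overlapping groups. Depdc7 and Qser1, on the same strand and 11991 bases apart, thus differed in direction.

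The transcription and development genes held 13 members, of which 1 was higher and 3 were lower at p of at most 0.05, with a median log2 fold change of -0.11 and groups that did not overlap for 6. Over all genes tested, 11.6% were at p of at most 0.05 and 18.4% had groups that did not overlap, with a median of -0.05, and the counts of each list are to be read against these shares. The higher member was Lmo2, and Qser1 was among the lower ones. Hipk3, a kinase of homeodomain proteins, was at 88.5, 86.5 and 80.7 CPM in WT mice and at 75.1, 76.8 and 80.2 CPM in those labelled Rag1-/- (log2 fold change -0.14, SE 0.05, adjusted p = 0.373), so that the groups were parted by a narrow gap. Cry2, a repressor of the circadian clock on the proximal side at -9.22 Mb, was at 81.9, 77.8 and 82.4 CPM and at 72.7, 75.7 and 75.7 CPM (log2 fold change -0.11, SE 0.04, adjusted p = 0.392). Cry2 shares bases with the transcript D930015M05Rik. The other 2 without overlap were lower, Elp4, a subunit of the Elongator complex that shares bases with Pax6 (log2 fold change -0.10, SE 0.06), and Elf5, an ETS factor at 0.380 to 0.582 CPM over the 6 libraries. Phf21a, of the LSD1 corepressor complex, had a log2 fold change of -0.06 (SE 0.08).

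The ubiquitin, autophagy and immune signalling genes held 11 members (F2 was not in the table), with 1 higher (Commd9) and 1 lower (Cd44) at p of at most 0.05, a median of -0.07 and groups that did not overlap for 5, beside 11.6% and 18.4% of all genes. Trim44, a TRIM-family protein, was at 258, 243 and 246 CPM in WT mice and at 231, 241 and 226 CPM in those labelled Rag1-/- (log2 fold change -0.10, SE 0.04, adjusted p = 0.433). Fbxo3, an F-box subunit of a ubiquitin ligase, averaged 88.6 ± 3.62 CPM in WT and 82.9 ± 1.73 CPM in those labelled Rag1-/- (SD, n = 3 each), with a log2 fold change of -0.09 (SE 0.04). Atg13, of the complex that starts autophagy, was the fifth without overlap, with a log2 fold change of -0.07 (SE 0.04).

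The metabolism and organelle genes held 13 members, with 1 higher, 1 lower, a median of 0.01 and none whose groups did not overlap. Cat, which encodes catalase, was at 67.0, 71.7 and 64.6 CPM in WT mice and at 79.6, 71.1 and 75.7 CPM in those labelled Rag1-/-, where Rag1-/- replicate 2 lay under WT replicate 2 (log2 fold change 0.15, SE 0.06, adjusted p = 0.385). Rcn1, a calcium-binding protein of the endoplasmic reticulum, was at 22.3, 19.5 and 24.9 CPM and at 17.9, 21.1 and 17.6 CPM (log2 fold change -0.24, SE 0.10, adjusted p = 0.429). Both pairs of groups overlapped. Pdhx, of the pyruvate dehydrogenase complex, had a log2 fold change of 0.10 (SE 0.06) and Hsd17b12, of fatty acid elongation, 0.04 (SE 0.06).

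The neuronal signalling genes held 14 members, 0 of them at p of at most 0.05, with a median of -0.07 and log2 fold changes from -0.20 to 0.09. Mapk8ip1, the JNK scaffold JIP1, was the only one of them whose groups did not overlap, at 433, 435 and 447 CPM in WT mice and at 477, 462 and 453 CPM in those labelled Rag1-/- (log2 fold change 0.08, SE 0.04, adjusted p = 0.474). Syt13, a synaptotagmin, had a log2 fold change of -0.11 (SE 0.07), and Dgkz, a diacylglycerol kinase, one of -0.09 (SE 0.15). The RNA processing and translation genes held 5 members, 0 of them at p of at most 0.05 and 2 of them lower without overlap. These 2 were Caprin1, an RNA-binding protein of stress granules, and Api5, an apoptosis inhibitor (each log2 fold change -0.06, SE 0.04). After median-of-ratios rescaling their log2 fold changes were -0.020 and -0.015, so their size depends on scaling. Over all members, 15 were without overlap after that rescaling, beside 15.7% of all genes.

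The glycan synthesis genes held 3 members (Gyltl1b, also listed, is an older symbol of Large2). Ext2, a polymerase of heparan sulfate at -7.88 Mb, was lower, at 34.7, 34.5 and 36.5 CPM in WT mice and at 31.2, 32.4 and 31.4 CPM in those labelled Rag1-/-, without overlap (log2 fold change -0.15, SE 0.05, adjusted p = 0.354). Chst1, a keratan sulfate sulfotransferase, had a log2 fold change of -0.12 (SE 0.06), and Large2, a glycosyltransferase of dystroglycan at 0.245 ± 0.123 CPM in WT (SD, n = 3), one of -0.43 (SE 0.36). The cytoskeleton genes held 4 members, 0 at p of at most 0.05 and 0 without overlap. The third proximal member at p of at most 0.05 was Gm13889, which is in none of the lists and was named after its values were seen, at 22.7, 23.6 and 25.1 CPM in WT mice and at 26.0, 26.8 and 27.6 CPM in those labelled Rag1-/- (log2 fold change 0.17, SE 0.06, adjusted p = 0.369).

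Of the 5 nearest members on each side of Rag1, Commd9 at 0.25 Mb, Trim44 at 0.71 Mb and Api5 at -7.22 Mb had groups that did not overlap, with the values given above, and the other 7 had groups that overlapped, beside 18.4% of all genes without overlap. Traf6, the ubiquitin ligase of Toll-like and interleukin-1 receptor signalling, lies 0.046 Mb distal of Rag1 and was at 17.3, 19.8 and 18.5 CPM in WT mice and at 18.1, 17.5 and 19.2 CPM in those labelled Rag1-/- (log2 fold change -0.02, SE 0.07). B230118H07Rik, the nearest proximal member, averaged 20.9 ± 1.61 CPM in WT and 20.6 ± 0.608 CPM in those labelled Rag1-/- (SD, n = 3 each), also with a log2 fold change of -0.02 (SE 0.07). Prr5l, a partner of mTORC2, and Ldlrad3, an LDL receptor class A domain protein, had log2 fold changes of 0.05 (SE 0.10) and 0.11 (SE 0.09). Lrrc4c, a synaptic adhesion protein at -4.67 Mb, had one of -0.02 (SE 0.05), as 2810002D19Rik and Ttc17 had -0.03 (SE 0.11) and -0.01 (SE 0.05). The log2 fold changes of Traf6, B230118H07Rik, Lrrc4c, 2810002D19Rik and Ttc17 were smaller than the median shift of all genes (-0.05), so that their sign depends on scaling and gives no direction.

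**Figure D5:**
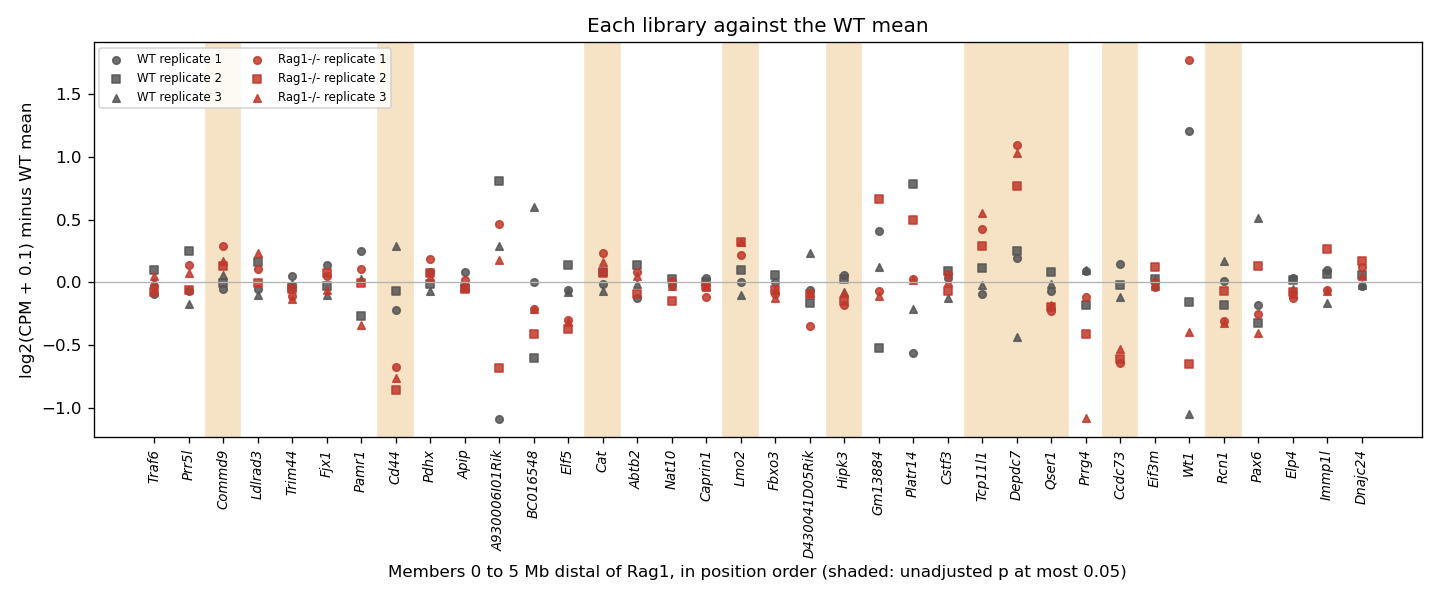
Each library of the 37 distal members within 5 Mb except 1 that is not reported here, in position order from Rag1, as log2(CPM + 0.1) minus the WT mean of the gene. Shaded columns mark the 10 members at an unadjusted limma p of at most 0.05. The libraries labelled Rag1-/- (red) do not overlap WT (grey) at 13 of the 37, among them Cd44, Tcp11l1, Depdc7 and Ccdc73, and low genes such as Wt1 scatter widely in both groups.

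The neighbours left out by name lie in the same stretch. Cd59a at 2.46 Mb, a complement regulator, had a log2 fold change of -1.84 (adjusted p = 2.21e-05), and its paralog Cd59b at 2.43 Mb, with which it may share reads, one of -0.74 (adjusted p = 0.373). Slc1a2 at 1.08 Mb, a glutamate transporter, had one of 0.13 (adjusted p = 0.441) and groups that did not overlap. With these 3 counted in, 12 genes within 5 Mb were at p of at most 0.05 in place of 10 of 39 members, beside 11.6% of all genes. The genes added to the count were Cd59a and Cd59b, so reads shared by this pair may enter it more than once.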

How the data were processed

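Total RNA from snap-frozen brainstems of 3 mice per genotype was sequenced on an Illumina HiSeq. The authors aligned reads with STAR 2.5.3a to mm10, quantified RefSeq transcripts in Partek Flow and deposited CPM values, in which the lowest value of each library was 0.0001. Filtering before deposit and use of strand are not given in the sources used here. Gene ends are given as 1 base before the deposited stop, since 70.9% of the 10271 genes with the RefSeq start had a stop 1 base past the RefSeq end.

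Whole reads were not recovered (85.4% to 87.2% of low values were whole within 0.1 read), so no count test was run, and read numbers are estimates that cover counting error only. Genes averaging 0.1 CPM or more (16762) entered the test as log2(CPM + 0.1) with limma-trend (limma 3.58.1, R 4.3.3), with Benjamini-Hochberg adjustment over all of them. The script was tested on simulated data. Members, lists and tests were chosen with earlier results of these data known. Named members were those with an adjusted p under 0.05, those with p of at most 0.01, the 5 nearest on each side of Rag1, the 5 of highest mean CPM, and from each role list those with p of at most 0.05 plus at most 2 of highest mean CPM. CPM was not scaled to gene length. Alternatives were other pseudocounts, filters, scalings and variance models, a replicate block, a term for Xist and leaving out each library. 1 member of the interval is not reported here by name.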

Additional observations from a re-analysis of the deposited data

How the results depend on the processing

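Of the 33 members chosen by the naming rule, 24 kept their direction under every alternative run for them and 9 did not. The 33 include Arhgap1, which is not described above. Elf5, Atg13, Prrg4, Eif3m, Lgr4, Fibin, Bdnf and Gm13889 are outside that rule, and their values under the alternatives are not given. After median-of-ratios rescaling and quantile normalization the median log2 fold change of the members was -0.0072 and 0.014, beside -0.0087 and 0.0022 for all genes, and log2 fold changes reversed for Ttc17 (0.028 and 0.029), 2810002D19Rik (0.011 and 0.045), Lrrc4c (0.025 and 0.028), B230118H07Rik (0.026 and 0.035) and Traf6 (0.024 and 0.031), whose values of -0.01 to -0.03 lay within the shift that both scalings give to all genes. With the Xist term, which rests on WT replicate 3 and assumes that it varies like the other libraries, Lrrc4c (0.011) and B230118H07Rik (0.10) reversed, and 2 members, Cd44 (-1.06) and Depdc7 (1.40), had an adjusted p under 0.05, as did 0.799% of all genes. With 1 library left out, the count of members 5 to 10 Mb away at p of at most 0.05 ranged from 2 to 7, that of members whose groups did not overlap from 20 to 37, and the log2 fold change from -0.25 to 0.080 for Dgkz, -0.13 to 0.0083 for Phf21a, -0.00037 to 0.091 for Hsd17b12, -0.058 to 0.026 for Ttc17, -0.065 to 0.037 for 2810002D19Rik, -0.036 to 0.018 for Lrrc4c, -0.076 to 0.034 for B230118H07Rik, -0.067 to 0.029 for Traf6 and -0.036 to 0.17 for Prr5l. Of the others, Syt13 ranged from -0.16 to -0.026, Chst1 from -0.18 to -0.063, Large2 from -0.76 to -0.21 and Ldlrad3 from 0.047 to 0.19. Rcn1 ranged from -0.33 to -0.15, Pdhx from 0.054 to 0.14 and Caprin1 from -0.078 to -0.036. The count of 37 was without WT replicate 2, where 31.0% of all genes had groups that did not overlap. Fewer libraries overlap less often, and with all libraries that share was 18.4%. Without WT replicate 3 the share was similar, at 30.8% of all genes, but the count was 23. The cause of the count of 37 and of the other changes was not tested. The count of members within 5 Mb at p of at most 0.05 ranged from 7 to 12 over all settings, beside 6.65% to 16.3% of all genes.

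Same-numbered libraries did not deviate together (correlations of deviations 0.0926, -0.22 and -0.0183). Whether same-numbered mice shared a litter or batch was not tested. With a replicate block, 9 members were at p of at most 0.05, of which 7 within 5 Mb, beside 8.10% of all genes, and 0 had an adjusted p under 0.05. Depth limits the low members most, since 3 reads equal up to 0.0951 CPM and 13 members were under 1 CPM.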
